A study of Mus musculus with 35 samples.

Results

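The angiopoietin and Tie system was followed here through 5 genes chosen by name: the ligands *Angpt1* and *Angpt2*, the receptors *Tek* (TIE2) and *Tie1*, and *Ptprb*, which encodes the receptor phosphatase VE-PTP. All 5 were among the 53465 genes of the bulk table, and all 5 passed the filter on low values that left 19765 genes for testing. In bulk RNA-seq, endothelial (Ec), mural (Mu) and neural (N) cells and microglia (Mi) had been sorted from 3 brains of E14.5 mouse embryos, which gave 12 libraries named by population and brain, such as Ec-340, Ec-343 and Ec-346. Values listed for a population follow this order of the brains. Single-cell RNA-seq by mCEL-Seq2, a method that counts the 3′ ends of transcripts by molecular identifiers, covered wild-type wells on plates 1 to 3, each with its sort gate, and wells of plates 4 to 6, labelled Mof Knockout, for which no gate was given. All cells came from E14.5 brains, the bulk libraries and plates 1 to 3 are wild-type by the study's description, and neither the strain nor the way the knockout was made is given in the sources used here. In the wild-type wells 686 cells with more than 1500 transcripts lay in the 4 gates, 123 neural, 210 mural, 225 endothelial and 128 microglial, and on the knockout plates 882 cells passed the same minimum.

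ANGPT1 is an agonist of the receptor TIE2 and is made mainly by cells around the vessel, so that it acts on the endothelium from outside. ANGPT2 is stored in and released by endothelial cells and, depending on context, blocks or weakly activates the same receptor. TIE1 binds neither ligand directly with high affinity and modulates TIE2, while VE-PTP removes phosphate from TIE2 and from partners of VE-cadherin, and the system is known for vessel remodelling, quiescence and barrier tightness in the brain.

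In the 3 endothelial libraries 4 of the 5 genes, *Angpt2*, *Tek*, *Tie1* and *Ptprb*, had their highest level, and *Angpt1* had its highest level in the 3 mural libraries. For each gene the 3 libraries of the top population lay above all 9 others, a pattern that 6.28% of the tested genes had for the endothelial and 7.25% for the mural libraries. A difference was called at an adjusted p under 0.05 in limma, on log2(normalized count + 1). The mean of other populations is that of their log2 values, which libraries with few or no reads pull down. All 5 genes were called higher in their top population than in the mean of the other 3, where 19.7% of all genes were called higher for endothelial cells and 19.3% for mural cells. Over the 6 pairs of populations 22 of the 30 differences of the members were called in bulk. Of all genes, 27.8% were called between endothelial and mural cells, 32.4% between endothelial cells and microglia, 57.7% between endothelial and neural cells, 38.0% between mural cells and microglia, 54.6% between mural and neural cells and 59.8% between microglia and neural cells. In bulk samples, fewer cells of a type and less RNA per cell cannot be told apart.

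**Figure D1:**
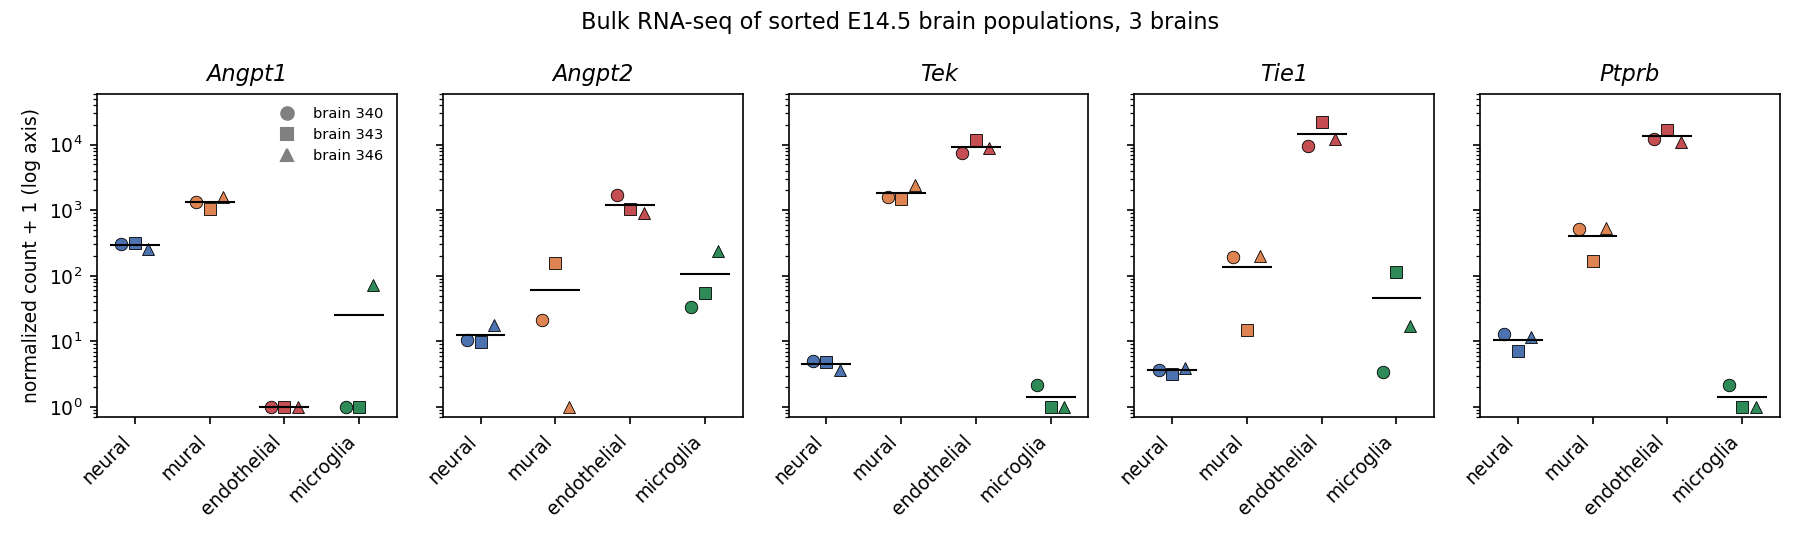
Normalized counts plus 1 of the 5 genes in the 12 bulk libraries, on a log axis, with 1 panel per gene, 1 point per library shaped by brain and a bar at the mean of each population. *Angpt1* was at 0 before this addition in the 3 endothelial libraries and between 1058 and 1579 in the 3 mural ones, while the 3 endothelial points of *Ptprb* lay between 10993 and 16952.

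The library totals were 17638358 to 98414914 reads on genes in bulk, where 1 read was worth 0.264 to 1.77 normalized counts, and 50776 to 959619 transcripts stood behind each sum of single cells over a plate and gate. Neural libraries were made with another kit (TruSeq) than the other 3 populations (SMART-Seq v4 with Nextera XT), so the kit and the neural population cannot be told apart. The 9 endothelial markers checked, which did not include the members, summed to between 188369 and 210859 normalized counts in endothelial, 9415 to 12729 in mural, 1455 to 1815 in microglia and at most 156 in neural libraries. Much of the mural sum came from *Emcn* and *Esam*, with mural means of 4980 and 4293. None of the 9 was at 0 in an endothelial library. *Cldn5* and *Icam2* were each at 0 in at least 1 mural library, and *Emcn* was at 0 in all 3 of microglia. Fibroblast markers summed to between 8873 and 11803 in the mural libraries, erythroid markers to 12168 to 32942 in the endothelial ones, and border macrophage markers to 14920 to 18717 in microglia; their part in the results was not tested.

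The ligand with a perivascular source, *Angpt1* (ENSMUSG00000022309; mm10, chromosome 15, 42424723 to 42676977, minus strand), had normalized counts of 1347, 1058 and 1579 in the mural libraries. No read was found in the 3 endothelial libraries. In the neural libraries its normalized counts were 304.5, 315.6 and 257.6. Mural values therefore lay above neural ones without overlap, and neural values above endothelial ones. In microglia it was at 0 in Mi-340 and Mi-343 and at 71.8 in Mi-346. The mural mean of 1328 ± 261 (SD, n = 3) was at least 283-fold higher than the endothelial level, taking 3 reads per library as the floor, and 4.54-fold higher than the neural mean of 293 ± 30.8.

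On the log2 scale *Angpt1* was 6.94 ± 1.10 (SE) higher in mural cells than in the mean of the other 3 populations (limma, adjusted p = 0.00053) and 8.30 ± 1.35 higher than in microglia (adjusted p = 0.00057). Both depend on the pseudocount, since all 3 endothelial libraries and 2 of the 3 microglial ones were at 0. The difference from microglia was 6.03 with a pseudocount of 10. For it the ratio of means was 55.5-fold, and 36.7-fold without the brain of Mu-340. Its difference of 2.16 ± 1.35 between mural and neural cells did not pass (limma, adjusted p = 0.199), although it passed with a pseudocount of 10 (adjusted p = 0.0204) or without the brain of Mu-346 (adjusted p = 0.0458). An antisense gene, *Gm17473*, shares 737 bases, or 14.2%, of the exons of *Angpt1* and had a mean of 73.4 normalized counts in mural libraries. The counting's use of strand is not given in the sources used here.

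*Angpt2* (ENSMUSG00000031465; mm10, chromosome 8, 18690263 to 18741562, minus strand) is the autocrine ligand, made by the endothelium that also carries the receptor. Its normalized counts in the endothelial libraries were 1673 in Ec-340, 1023 in Ec-343 and 915.5 in Ec-346. In microglia they were 32.1, 54.5 and 234.2 in the same order. The mural libraries gave 20.1, 156.4 and 0, and the neural ones 9.35, 8.86 and 16.9. The endothelial libraries were thus the highest in every brain, whereas mural and microglial values overlapped and differed widely from brain to brain. Mu-343 held most of the mural signal, and Mi-346 most of the microglial one.

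The endothelial mean of *Angpt2*, 1204 ± 410 (SD, n = 3), was 20.5-fold the mural, 11.3-fold the microglial and 103-fold the neural mean. The ratio to the mural mean was 129-fold without the brain of Mu-343 and 12.4-fold without that of Mu-340, and the ratio to the microglial mean was 31.1-fold without the brain of Mi-346 and 6.72-fold without that of Mi-340. On the log2 scale *Angpt2* was 5.60 ± 1.20 (SE) higher in endothelial cells than in the mean of the other 3 populations (limma, adjusted p = 0.0037). Without the brain of Ec-340 the difference was 5.18 and no longer passed (adjusted p = 0.0795). The differences from mural cells, 6.28 ± 1.47 (adjusted p = 0.0088), and from neural cells, 6.57 ± 1.47 (adjusted p = 0.0029), passed in limma over the 3 brains, and neither passed without that brain (adjusted p = 0.105 and 0.0636). Since Mu-346 was at 0, the limma difference from mural cells depends on the pseudocount, as does in part that from the mean of the other 3. The difference from mural cells also just missed in edgeR on the recovered reads (4.32, adjusted p = 0.05002).

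Between endothelial cells and microglia the log2 difference of *Angpt2* was 3.94 ± 1.47 with a 95% interval from 0.70 to 7.19 and did not pass (limma, adjusted p = 0.0628). It passed with a pseudocount of 10 (adjusted p = 0.0079), in DESeq2 on the recovered reads (adjusted p = 0.0164) and without the brain of Mi-346 (adjusted p = 0.0176). Among the 3 lower populations no limma difference of *Angpt2* passed over the 3 brains, and the microglia minus neural difference, 2.63 ± 1.47, passed only in DESeq2 (adjusted p = 0.0217). *Angpt2* lies inside *Mcph1* on the opposite strand without sharing an exon base. *Mcph1* had mean normalized counts of 1247 in endothelial, 549 in mural, 1254 in microglial and 458 in neural libraries. Its part in the *Angpt2* values was not tested.

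The receptors come next, and for them the reference holds the sequence around the gene start. Windows from 250 bases before to 50 bases after RefSeq's gene start are shown for *Tek* and *Tie1*, the 2 genes with an entry among the 5, because the pair of receptors had different mural levels, high for *Tek* and low for *Tie1*. The sequences are RefSeq's (GRCm38.p6), 5′ to 3′ on the strand of the gene, *Tek* at chr4:94739039-94739338 (plus strand) and *Tie1* at chr4:118489800-118490099 (minus strand). The RefSeq start of *Tek* is that of the GENCODE gene model given below, whereas that of *Tie1*, at 118489849, lies 212 bases downstream of it, inside the gene model. Capitals mark matches, on both strands, to GGAAG (a longer form of the core GGAA bound by ETS factors), TGTTTA (a forkhead core) and ACAAAG (a SOX core).
Tek: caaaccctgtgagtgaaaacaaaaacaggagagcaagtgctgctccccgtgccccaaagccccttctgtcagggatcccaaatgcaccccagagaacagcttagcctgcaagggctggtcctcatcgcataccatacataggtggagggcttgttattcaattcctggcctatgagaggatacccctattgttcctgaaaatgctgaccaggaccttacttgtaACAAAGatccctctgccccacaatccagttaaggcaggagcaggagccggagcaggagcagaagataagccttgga
Tie1: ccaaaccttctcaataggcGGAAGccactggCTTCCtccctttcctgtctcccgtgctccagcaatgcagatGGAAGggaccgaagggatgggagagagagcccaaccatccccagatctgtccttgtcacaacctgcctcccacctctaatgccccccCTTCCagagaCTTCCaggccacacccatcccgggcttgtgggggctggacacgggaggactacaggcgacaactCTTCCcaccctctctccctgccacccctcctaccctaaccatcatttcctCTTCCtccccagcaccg
The *Tek* window held 1 SOX core match and no match to the other motifs. It does hold the shorter GGAA, read as TTCC on the strand shown, which was not marked. The *Tie1* window held 7 ETS core matches, none of which overlaps another, and no match to the others. Of the 32851 windows of this length, 71.4% held at least 1 GGAAG, 13.4% a forkhead core and 18.7% a SOX core. For GGAAG, 77 windows (0.234%) held 7 or more, and the median was 1. These matches describe the letters in the windows alone.

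*Tek* (ENSMUSG00000006386; mm10, chromosome 4, 94739289 to 94874976, plus strand) encodes the receptor of both ligands. Its normalized counts were 7483, 11566 and 8755 in the endothelial libraries. The mural libraries of the same brains gave 1610.1, 1495 and 2452. All mural values were below all endothelial ones and far above the others, since neural libraries gave 4.01, 3.88 and 2.64 and the microglial libraries held 1 read in all.

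The endothelial mean of *Tek*, 9268 ± 2089 (SD, n = 3), was 5.0-fold the mural mean of 1853 ± 523, and the mural mean was 528-fold the neural one. On the log2 scale the difference between endothelial and mural cells was 2.33 ± 0.46 (limma, adjusted p = 0.0035), a comparison in which 14.3% of genes were called higher in endothelial cells. Without the brain of Ec-343 it was 2.03 and did not pass (adjusted p = 0.0700). Mural cells exceeded neural cells by 8.66 ± 0.46 (limma, adjusted p = 1.4e-07) and the mean of the other 3 populations by 5.59 ± 0.38 (adjusted p = 1.6e-06). That mean is one of log2 values and is pulled down by the neural and microglial libraries. The mural level stayed below the endothelial one in every library.

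*Tie1* (ENSMUSG00000033191; mm10, chromosome 4, 118471191 to 118490061, minus strand) encodes the receptor partner of TIE2. Its normalized counts were 9489, 22286 and 12135 in the endothelial libraries. The mural libraries gave 190.1, 13.7 and 200.1, and microglia 2.38, 115.0 and 16.4. Mural and microglial values overlapped, whereas the endothelial values stood apart from all others and the neural libraries had 2.22 to 2.91.

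The endothelial mean of *Tie1*, 14637 ± 6756 (SD, n = 3), was 109-fold the mural mean (55.4-fold without the brain of Mu-343), and the log2 difference was 7.37 ± 1.25 (limma, adjusted p = 0.0013). Unlike *Tek*, *Tie1* was not called in mural cells against the mean of the others (log2 difference -0.24 ± 1.02, limma adjusted p = 0.871). Mural cells exceeded neural cells by 4.53 ± 1.25 (adjusted p = 0.0103), a call lost without the brain of Mu-340 (adjusted p = 0.0646) or that of Mu-346 (adjusted p = 0.148).

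*Ptprb* (ENSMUSG00000020154; mm10, chromosome 10, 116275523 to 116389535, plus strand) encodes VE-PTP, a phosphatase of the R3 group with a long extracellular part. Its normalized counts in the endothelial libraries were 12285 in Ec-340, 16952 in Ec-343 and 10993 in Ec-346. In the mural libraries they were 523.5, 168.9 and 534.4. Neural libraries gave 12, 6.09 and 10.8, and the 3 microglial libraries together held 1 read. *Ptprb* was therefore ordered endothelial, mural, neural, microglia with no overlap between neighbours, and all 6 of its pairwise differences were called.

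The endothelial mean of *Ptprb*, 13409.9 ± 3135 (SD, n = 3), was 32.8-fold the mural and 1390.02-fold the neural mean. Against microglia the ratio of means was 33845, with a counting interval from 6074 to 1336799.7 because a single read stands below it. On the log2 scale *Ptprb* was 9.60 ± 0.47 (SE) higher in endothelial cells than in the mean of the other 3 (limma, adjusted p = 1.5e-07), 5.18 ± 0.58 higher than in mural cells (adjusted p = 7.5e-05) and 10.32 ± 0.58 higher than in neural cells (adjusted p = 1.7e-07).

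*Ptprb* in mural cells was above the neural level by 5.14 ± 0.58 on the log2 scale (limma, adjusted p = 2.8e-05). It was above the mean log2 value of the other 3 populations by 2.69 ± 0.47 (limma, adjusted p = 0.0010). Its mean count in mural libraries, 409, was nonetheless far below the endothelial 13410. The difference from the mean log2 value missed the threshold among the 3 populations made with the SMART-Seq kit (limma, adjusted p = 0.0546). The neural level, 9.65 ± 3.14 normalized counts, exceeded the microglial one by 2.99 on the log2 scale (adjusted p = 0.0011), which rests on 61 neural reads against 1 microglial read and did not pass with a pseudocount of 10 (adjusted p = 0.0939). The intron-located gene *Gm47625* on the same strand had a mean of 696 normalized counts in endothelial libraries and at most 0.42 in the others, and shares no exon base with *Ptprb*.

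**Figure D2:**
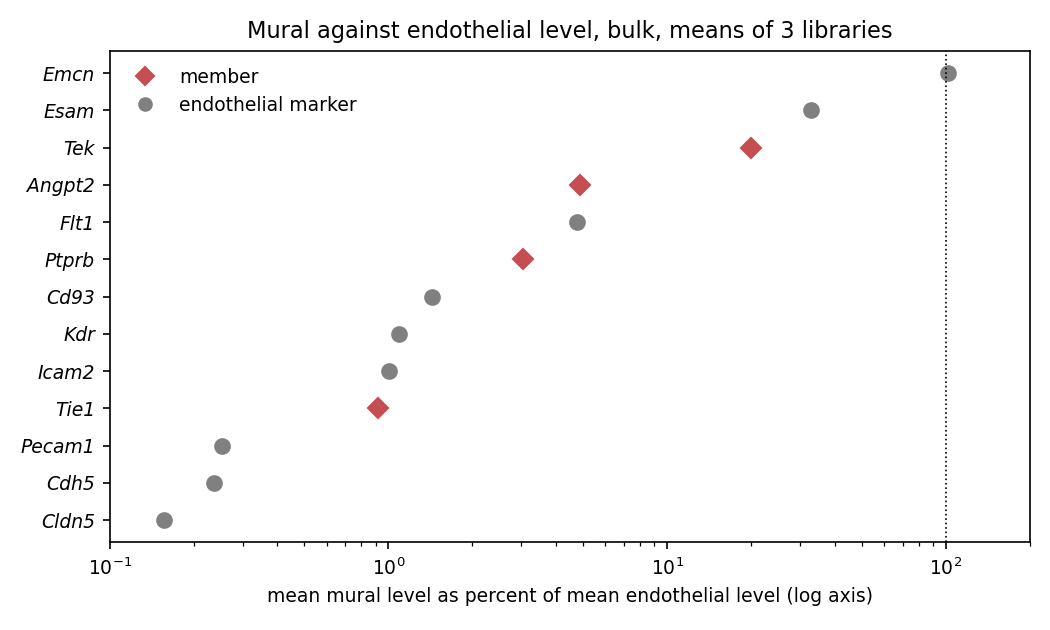
Mean normalized count in mural libraries as a percentage of the endothelial mean, on a log axis, for *Angpt2*, the 2 receptors, *Ptprb* and the 9 endothelial markers. *Tek* stood at 20%, *Angpt2* at 4.89%, *Ptprb* at 3.05% and *Tie1* at 0.92%, beside a marker median of 1.09%, and the places of *Angpt2*, *Ptprb* and *Tie1* depend on the brain of Mu-343.

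The mural level of the endothelial members was also taken as a share of the endothelial level, from the means of 3 libraries. It was 20% for *Tek*, 4.89% for *Angpt2*, 3.05% for *Ptprb* and 0.92% for *Tie1*. By brain the share was 21.5, 12.9 and 28.0% for *Tek* and 4.26, 0.996 and 4.86% for *Ptprb*. It was 1.20, 15.3 and 0% for *Angpt2* and 2.0031, 0.0615 and 1.65% for *Tie1*. *Tek* was the highest of the 4 in the brains of Mu-340 and Mu-346 and second to *Angpt2* in that of Mu-343. Without the brain of Mu-343 the shares were 25.0184% for *Tek*, 4.54% for *Ptprb*, 1.80% for *Tie1* and 0.777% for *Angpt2*, so that the order of the last 3 turned. Over the 9 endothelial markers the same share had a median of 1.09% and ran from 0.157% (*Cldn5*) to 102% (*Emcn*), with 7 of 9 under 5%. *Tek* thus lay above 7 of the 9 and below *Esam* (32.8%) and *Emcn*, and *Ptprb* and *Tie1* lay within the range of the lower 7. The part of endothelial RNA in the mural libraries was not tested.

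Levels of different genes were compared per kb of exon. In endothelial libraries the mean was 2977 normalized counts per kb for *Tie1*, 1967 for *Tek*, 1006 for *Ptprb* and 326 for *Angpt2*. In each of the 3 libraries *Tie1* exceeded *Tek* per kb (ratios of 1.22, 1.85 and 1.33), *Ptprb* stood at 0.580, 0.518 and 0.444 of *Tek*, and *Angpt2* at 0.285, 0.113 and 0.134. The order was therefore the same in every brain. With the length of the longest transcript in place of all exons, an alternative added once the data had been seen, the means were 3457, 1991, 1126 and 338, in the same order. In mural libraries *Angpt1* stood at 0.757, 0.641 and 0.583 of *Tek* per kb.

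In the gated wild-type cells *Tek*, *Tie1* and *Ptprb* were each found in most cells of the endothelial gate. *Ptprb* was found in 179 of 225 endothelial-gate cells (79.6%, exact 95% interval 73.7 to 84.6%), at 489 CPM (transcripts of the gene per 1000000 transcripts, over all cells of the gate). *Tie1* was also found in 179 cells, at 536 CPM, and *Tek* in 149 (66.2%, 59.6 to 72.4%) at 245 CPM. All 3 genes were found together in 117 cells (52.0%), and none of them in 20 cells (8.89%) whose median depth, 3063 transcripts, was below the 8374 of the former. Intervals here and below cover counting error only. The order per transcript, *Tie1*, *Ptprb*, *Tek*, *Angpt2*, differs from the bulk order per kb in the places of *Ptprb* and *Tek*.

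By plate, *Ptprb* was found in 99 of 120, 74 of 92 and 6 of 13 endothelial-gate cells, at 513, 478 and 257 CPM. *Tie1* had 540.3, 555 and 314 CPM, and *Tek* 238, 279.7 and 28.5 CPM. Plate 3 was the lowest for all 3 genes. Its 13 cells also stood apart in their markers: the 12 of them without *Angpt2* held 2801 CPM of endothelial and 3278 CPM of mural markers, where the like cells of plates 1 and 2 held 7314 and 6648 CPM of endothelial and 427 and 88.8 CPM of mural markers. The part of other cells in the values of plate 3 was not tested, and each test was also run without it. Nothing links plates to brains, so p-values from these sums measure only the spread between plates.

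In edgeR on the 12 sums per plate and gate, *Ptprb* was 6.14 ± 0.28 higher on the log2 scale in the endothelial gate than in the mean of the other 3 (adjusted p = 1.4e-26), *Tek* 5.67 ± 0.37 (adjusted p = 7.8e-20) and *Tie1* 5.62 ± 0.28 (adjusted p = 5.7e-25). In this comparison 16.4% of 9281 genes were called higher and 3.02% by over 10-fold. Without plate 3 the differences were 6.44, 6.15 and 5.77. Of the 18 pairwise differences of these 3 genes 11 were called, where the shares of all genes called ran from 20.7% between the endothelial and mural gates, over 33.1% (mural and neural), 36.2% (endothelial and microglia), 36.4% (endothelial and neural) and 37.7% (mural and microglia), to 44.3% between the microglia and neural gates. *Angpt1* and *Angpt2* had too few transcripts for the filter on low counts.

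**Figure D3:**
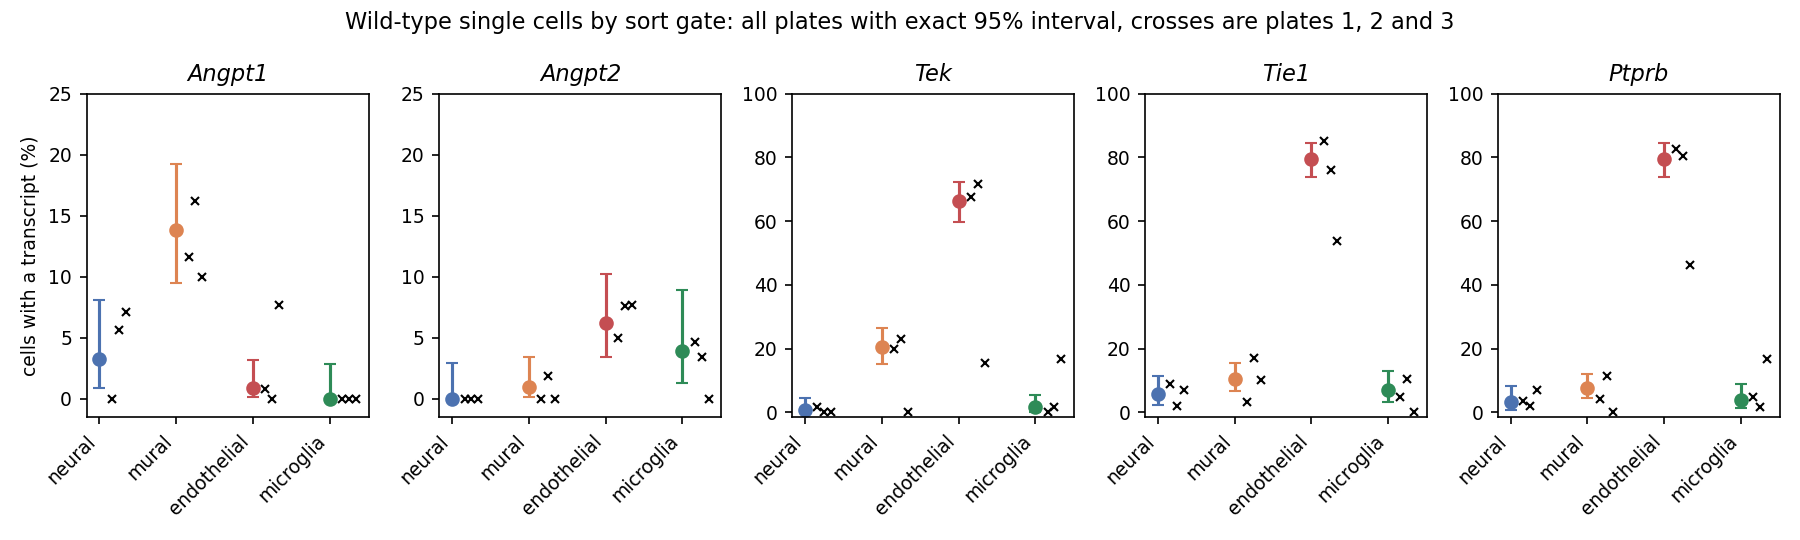
Percentage of wild-type cells in which each of the 5 genes was found, by sort gate, with exact 95% intervals. *Tek*, *Tie1* and *Ptprb* were found in 66.2 to 79.6% of endothelial-gate cells, *Angpt2* in 6.22% of them and *Angpt1* in 13.8% of mural-gate cells.

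In the mural gate *Tek* was found in 43 of 210 cells (20.5%, 15.2 to 26.6%), *Tie1* in 22 (10.5%) and *Ptprb* in 16 (7.62%, 4.42 to 12.1%). By plate, *Tie1* was found in 3 of 95, 18 of 105 and 1 of 10 of these cells and *Ptprb* in 4 of 95, 12 of 105 and 0 of 10, so plate 2 held most of both, and without it each was in 4 of 105 cells (3.81%). The neural gate, where endothelial genes should be lacking, gave 1 of 123 cells (0.813%) for *Tek*, 7 (5.69%) for *Tie1* and 4 (3.25%) for *Ptprb*, at a median depth of 7717 transcripts against 6885 in the mural gate. After thinning every cell to 1500 transcripts, which left out no cell, the mural shares were 5.24% for *Tek* and 1.90% for both *Tie1* and *Ptprb*, and the endothelial shares 25.3%, 52.0% and 46.7%. *Tek* was higher in the mural than in the neural gate by 4.96 ± 0.91 on the log2 scale (edgeR, adjusted p = 1.1e-05), whereas the same differences of *Tie1*, 1.46 ± 0.68, and *Ptprb*, 1.29 ± 0.74, did not pass (adjusted p = 0.094 and 0.192). Without plate 3 both passed in edgeR, at 1.80 for *Tie1* (adjusted p = 0.0407) and 1.77 for *Ptprb* (adjusted p = 0.0387), and without plate 1 *Tie1* passed at 2.96 (adjusted p = 0.0188). Without plate 2 they were -0.87 and -0.11 and did not pass, so whether mural cells exceed the neural gate in these genes depends on the plate. The *Tek* difference did not pass in DESeq2 (adjusted p = 0.102). By plate, *Tek* was found in 19 of 95, 24 of 105 and 0 of 10 mural-gate cells. In single cells a count of 0 limits the share of cells with a transcript at this depth, here to 30.8%, and not the share that expresses the gene.

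The 43 mural-gate cells with *Tek* were compared with the 167 without it, as a description. They held 14382 against 11471 CPM of mural markers and 412 against 391 CPM of endothelial markers. *Cdh5*, which encodes VE-cadherin, was found in none of the 210 cells, and *Pecam1* and *Cldn5* each in 1 of the 43 and 2 of the 167. *Angpt1* stood at 43.8 CPM in the cells with *Tek* and 18.2 CPM in those without, at median depths of 8232 and 6651 transcripts. The sum of endothelial markers includes *Emcn* and *Esam*, which bulk mural libraries held at 102% and 32.8% of the endothelial level. It therefore cannot show how much endothelial RNA these cells held, which was not tested.

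*Angpt1* transcripts were found in 29 of 210 mural-gate cells (13.8%, 9.45 to 19.2%), at 11 of 95, 17 of 105 and 1 of 10 cells on plates 1 to 3, with 23.9 CPM in all. The endothelial gate had 2 of 225 cells (0.889%), the neural gate 4 of 123 (3.25%), and the microglia gate 0 of 128, which limits cells with a transcript to 2.84%. After thinning the mural share was 2.86%. The neural and endothelial values rest on 4 and 2 cells, and by plate they stood at 0, 11.8 and 10.9 CPM and at 1.04, 0 and 14.2 CPM, beside 28.5, 21.3 and 13.7 CPM in the mural gate. The mural gate was thus the highest on plates 1 and 2, and the other gates had no common order.

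*Angpt2* was found in 14 of 225 endothelial-gate cells (6.22%, 3.44 to 10.2%), far fewer than held its receptor. The 33 transcripts gave 19.8 CPM. They came from 6 of 120, 7 of 92 and 1 of 13 cells on plates 1 to 3. The 7 cells with at least 2 transcripts held 26 of the 33, and the most in a cell was 6. Thinned to 1500 transcripts, 5 of 225 cells (2.22%) kept an *Angpt2* transcript. In the mural gate it was found in 2 of 210 cells (0.952%), and in the neural gate in 0 of 123, which limits cells with a transcript at this depth to 2.95%.

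The microglia gate held *Angpt2* in 5 of 128 cells (3.91%, 1.28 to 8.88%), with 6 transcripts and 4.38 CPM at a median depth of 10761, and in 1 cell (0.781%) after thinning. The interval of this share overlaps that of the endothelial gate, at the greater depth, whereas the counting intervals of the levels, 1.61 to 9.53 CPM in microglia and 13.6 to 27.8 CPM in the endothelial gate, did not overlap. None of these 5 cells held a transcript of *Tek*, *Tie1* or *Ptprb*. In microglia as a whole *Tie1* was found in 9 cells (7.03%) and *Ptprb* in 5 (3.91%), shares near those of the neural gate. At such shares 5 cells are too few to tell whether those with *Angpt2* differ in these genes. The share of *Ptprb* equals that of *Angpt2*, although the bulk microglial libraries held 1 read of *Ptprb* and 259 of *Angpt2*. By plate, *Angpt2* was found in 3 of 64, 2 of 58 and 0 of 6 microglia-gate cells.

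Genes known from endothelial tip cells, the leading cells of a sprout, were then set beside *Angpt2* within the endothelial gate, as a description. In the 14 cells with *Angpt2* the 6 tip cell genes listed summed to 992 CPM, and in the 211 without to 355 CPM, at median depths of 8322 and 6339 transcripts. *Apln*, a secreted peptide ligand, stood at 500.1 against 169 CPM. *Esm1*, a secreted proteoglycan, was found in 5 of 14 and 6 of 211 cells, and *Dll4*, a Notch ligand, stood at 222 against 101 CPM. The receptor *Tek* went the other way, at 167 CPM in cells with and 251 CPM in cells without *Angpt2*. *Tie1* (516 and 538 CPM) and *Ptprb* (508 and 487 CPM) were close in both sets. Mural markers also stood higher in the cells with *Angpt2*, at 899 against 419 CPM in all, 1293 against 427 CPM on plate 1 and 415 against 88.8 CPM on plate 2, and their part in these values was not tested.

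On plates 1 and 2 taken alone the tip cell genes stood at 737 against 399.5 and at 1443 against 307 CPM, while the lone *Angpt2* cell of plate 3 held none of them. The 6 genes did not all move alike, since *Cxcr4*, a chemokine receptor, stood at 28.3 against 82.2 CPM on plate 1 and at 138 against 35.8 CPM on plate 2, and *Pgf* at 0 against 2.60 CPM over the gate. *Tek* stood at 227 against 239 CPM on plate 1 and at 79.0 against 297 CPM on plate 2. The lower *Tek* level in the 14 cells therefore came from plate 2. These values have no test, since the cells were chosen by the gene itself and a cell is not a replicate.

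The genes whose bulk pattern was most like that of *Angpt2* were *Kcnj2*, an inward rectifier potassium channel (Pearson r = 0.952), *Gm43534* (0.929), *6430710M23Rik* (0.916), *Masp2* (0.914) and *Sltm* (0.912), over 12 libraries and 19736 genes. For *Ptprb* they were *Vsig2* (0.995), *Ndufv1* (0.991), *Proser2* (0.986), *Clec14a* (0.985) and *Ppp1r2-ps2* (0.980). For *Angpt1* they were *Zfp575* (0.982), *Klf15* (0.979) and *Gfra2* (0.979), for *Tek* *Ppp1r2* (0.996), *Itm2a* (0.995) and *Foxq1* (0.995), and for *Tie1* *Ppt2* (0.972), *Kdr* (0.972) and *Cd93* (0.970). The points share their population and brain, so these values describe likeness alone. Among the members *Tek* and *Ptprb* were the most alike (0.968) and *Angpt1* and *Angpt2* the least (-0.68).

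*Kcnj2* could be followed into single cells, where it was found in 8 of the 14 endothelial-gate cells with *Angpt2*, at 135 CPM, and in 73 of the 211 without it, at 78.6 CPM. The higher level came from plate 2 (277 against 58.0 CPM), while *Kcnj2* stood at 42.5 against 96.8 CPM on plate 1 and at 0 against 15.3 CPM on plate 3. Like *Angpt2* it was low but not absent in bulk microglia, with a mean of 145 normalized counts against 656 in endothelial, 18.1 in mural and 16.5 in neural libraries.

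**Figure D4:**
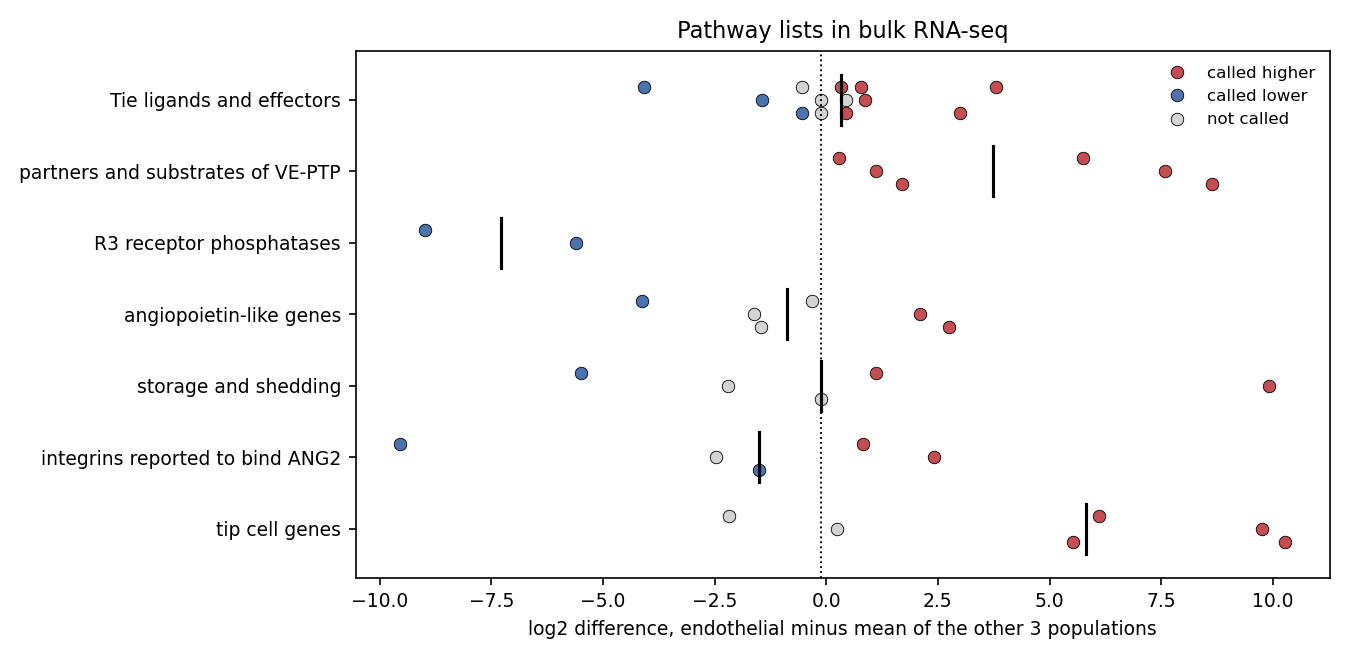
Log2 difference between endothelial cells and the mean of the other 3 populations (limma, 12 bulk libraries) for the genes of 7 lists around the pathway. Points are red for genes called higher, blue for genes called lower (adjusted p under 0.05) and grey for genes not called. All 6 partners and substrates of VE-PTP were called higher, with a median of 3.73, while the median of all 19765 genes was -0.12.

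Around the members, lists of pathway genes were read in the contrast of endothelial cells with the other 3 populations, in which 42.1% of all genes were called and the median log2 difference was -0.12. All 6 partners and substrates of VE-PTP were called higher (median 3.73). The largest differences were those of *Cdh5* (8.65 ± 0.82), *Kdr* (7.58 ± 0.29), the VEGF receptor 2, and *Fgd5* (5.76 ± 0.34), an exchange factor of endothelial cells. *Ctnnb1*, encoding beta-catenin, was called at 0.30 ± 0.10, although its neural mean of 36764 normalized counts exceeded its endothelial mean of 11803. *Arhgef2*, an exchange factor, was called at 1.12, also with a higher neural (7420) than endothelial mean (4944).

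Of the other R3 receptor phosphatases *Ptprj* and *Ptpro* were tested and both were called lower, as were 22.4% of all genes, with log2 differences of -5.60 ± 1.23 and -8.98 ± 0.50. *Ptprj* had a mean of 8.52 normalized counts in endothelial libraries and 1725 in microglia, and *Ptpro* 0.95 in endothelial and 2345 in neural libraries. *Ptprh* and *Ptprq* were too low to test. *Ptprb* was the single R3 gene called higher in endothelial cells.

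Of the 16 further ligands and effectors of the Tie receptors 13 were tested, of which 6 were called higher, 3 lower and 4 did not pass (median 0.32). *Foxo1*, a transcription factor held back by TIE2 signalling, was called 3.0 ± 0.26 higher, with means of 3215 normalized counts in endothelial libraries and 319 to 623 in the others. *Grb7*, an adaptor, was called 3.80 ± 1.18 higher, and *Dok2*, also an adaptor, -4.08 ± 1.20 lower with its highest mean, 1755, in microglia. *Pik3r1*, the regulatory subunit of PI3K, was called lower (-1.43 ± 0.35), with 2040.3 in endothelial and 9411 in mural libraries. The ligand *Angpt4* had at most 21.4 normalized counts in any library and was not tested.

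Among 6 tip cell genes 4 were called higher (median 5.82): *Kcne3*, a potassium channel subunit, by 10.29 ± 0.46, *Apln* by 9.75 ± 0.58, *Esm1* by 6.12 ± 1.09 and *Dll4* by 5.53 ± 1.07. *Pgf*, a ligand of VEGF receptor 1, had 4617 normalized counts in mural against 97.0 in endothelial libraries and did not pass (-2.19 ± 1.01, limma adjusted p = 0.104). Of 5 genes of storage and shedding 2 were called higher, 1 lower and 2 did not pass (median -0.12). *Vwf*, the main protein of the granules that also hold ANGPT2, was 9.91 ± 0.68 higher, and *Rab27a*, which acts in granule traffic, was called lower (-5.50 ± 1.13) with 1858 in microglia. *Adam10*, a sheddase, was called 1.12 ± 0.08 higher.

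Of 5 integrin genes whose products are reported to bind ANG2, *Itga5* (2.41 ± 0.39) and *Itgb1* (0.82 ± 0.10), whose mural mean of 16901 normalized counts exceeded its endothelial mean of 14742, were called higher, *Itgb5* (-9.55 ± 0.48) and *Itgav* (-1.51 ± 0.25) lower, and *Itgb3* did not pass (median -1.51). Of 6 angiopoietin-like genes *Angptl1* (2.74 ± 0.71) and *Angptl4* (2.09 ± 0.33) were called higher, *Angptl2* (-4.13 ± 1.31) lower, and 3 did not pass (median -0.89). *Angptl4*, a lipase inhibitor, had a higher mean in mural (3511) than in endothelial libraries (1939.5).

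On the plates labelled Mof Knockout the targeted gene was looked at before the members. *Kat8*, which encodes MOF, stood at 15.8, 17.6 and 17.5 CPM on plates 1 to 3 and at 12.7, 10.4 and 11.2 CPM on plates 4 to 6, with overlapping counting intervals. The deleted part is not given in the labels and counting is at the 3′ end, so these values check nothing. The 882 cells were grouped by clustering without the members and named from markers. Plate 4 held 271 mural-like and 61 neural-like cells, plate 5 79 microglia-like and 111 neural-like cells, and plate 6 267 endothelial-like and 38 neural-like cells, and a cluster of 43 cells, 36 of them on plate 6, stayed unnamed. A further 9 mural-like cells lay on plate 6 and 3 endothelial-like cells on plate 4. Since the mural-like, microglia-like and endothelial-like cells came almost wholly from 1 plate each and were found by clustering and not by a gate, genotypes were not compared and the values are set side by side. Markers of other cell types differed between the sets: 5 border macrophage markers summed to 1489.5 CPM in the microglia-like cells, none of them at 0, and to 147 CPM in the wild-type microglia gate, with 2 at 0, while 6 fibroblast markers summed to 875 CPM in the mural-like cells and 754 CPM in the wild-type mural gate. Their part in the values was not tested.

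**Figure D5:**
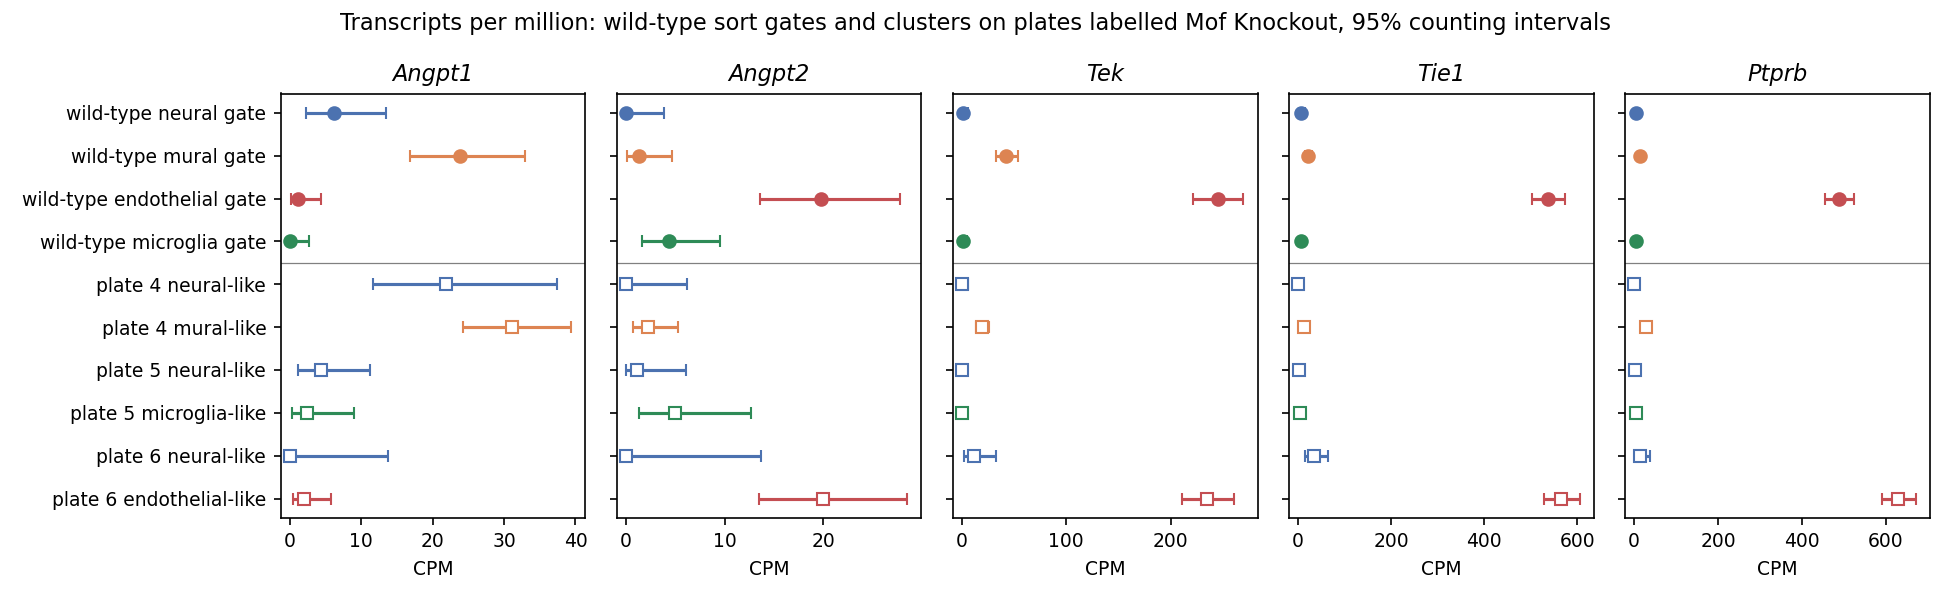
Level of each gene in CPM, with exact 95% counting intervals, in wild-type gates and in the matching classes on the knockout plates. *Angpt2* stood at 19.8 in the wild-type endothelial gate and at 20 in the endothelial-like class of plate 6, and *Ptprb* at 489 and 629.

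In the endothelial-like cells of plate 6 *Angpt2* was found in 19 of 267 cells (7.12%, 4.34 to 10.9%), with 20 CPM (13.5 to 28.5), beside 19.8 CPM (13.6 to 27.8) in the wild-type gate. *Ptprb* was found in 231 cells (86.5%) at 629 CPM, beside 79.6% and 489 CPM. *Tie1* was found in 236 cells (88.4%) at 565 CPM and *Tek* in 167 (62.5%) at 235 CPM, beside 536 and 245 CPM. The 3 genes other than *Angpt2* were found together in 140 cells and none of them in 7, and the median depth was 5190.4 transcripts against 6408 in the wild-type gate. The order of the 4 genes differed between the sets in *Ptprb* and *Tie1*, of which *Ptprb* was the higher on plate 6 as a whole but not in its cluster of 78 cells.

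The cells of plate 6 with *Angpt2* also held more tip cell transcripts, 709.6 CPM in 19 cells against 254 CPM in 248, with *Apln* at 302 against 120.5 CPM. *Tek* stood at 106 CPM in the 19 and 247 CPM in the 248. The direction of these differences was that of the pooled wild-type gate, where the lower *Tek* level came from plate 2. Median depths were 5305 and 5166 transcripts, and mural markers stood at 106 and 128 CPM. The 248 cells include all 67 of a shallow cluster, described below. That cluster held 98.6 CPM of tip cell genes, against 266 to 403 CPM in the other endothelial-like clusters of the plate.

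Within the endothelial-like class the 4 clusters of plate 6 differed in the members, which took no part in the clustering. A cluster of 78 cells led by *Col15a1*, *Plvap* and *Aplnr* held *Angpt2* in 10 cells (12.8%, 6.32 to 22.3%), *Ptprb* at 493 CPM and *Tie1* at 629 CPM. A cluster of 74 cells led by *Slco1c1*, *Cxcl12* and *Spock2* held *Angpt2* in 7 cells (9.46%) and the highest *Ptprb* level, 940.4 CPM, with *Tie1* at 748 CPM. A cluster of 48 cells led by cell cycle genes such as *Mki67* held *Angpt2* in 2 cells (4.17%), *Tek* in 40 cells (83.3%) and *Ptprb* at 501 CPM. *Apln*, among the leading genes of the cluster of 48 cells, stood there at 210.3 CPM, against 146 CPM in the cluster of 78 cells and 125 CPM in that of 74. Among these 3 clusters the highest *Apln* level thus did not stand with the highest *Angpt2* level (5.53, 34.9 and 28.8 CPM in the same order). In a cluster of 67 cells with the lowest median depth, 3608 transcripts, *Angpt2* was found in 0 cells (at most 5.36% with a transcript at this depth), and *Tek* in 26 (38.8%). Its *Apln* level, 30.4 CPM, was also the lowest of the 4 clusters. The counting interval of *Ptprb* in the *Slco1c1* cluster, 849 to 1037 CPM, did not overlap those of the other 3 clusters.

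In the mural-like cells of plate 4 *Angpt1* was found in 57 of 271 cells (21.0%, 16.3 to 26.4%) at 31.1 CPM, beside 13.8% and 23.9 CPM in the wild-type mural gate. *Ptprb* was found in 43 cells (15.9%, 11.7 to 20.8%) at 28.9 CPM, beside 7.62% and 13.5 CPM. *Tek* was found in 34 cells (12.5%) at 19.0 CPM, beside 20.5% and 42.6 CPM, and *Angpt2* in 4. *Ptprb* was thus above *Tek* on plate 4 and below it in the wild-type gate, at median depths of 7818 and 6885 transcripts. Of the 3 mural-like clusters this held in the one of 185 cells (*Ptprb* at 36.8 and *Tek* at 20.8 CPM), while both stood at 10.7 CPM in a cluster of 41 cells and at 17.5 and 20.006 CPM in one of 45. The 237 cells without *Tek* held 400.3 CPM of endothelial markers and the 34 with it 508 CPM. These sums include *Emcn* and *Esam*, which bulk mural libraries also held.

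The neural-like cells of plate 4 held *Angpt1* in 9 of 61 cells (14.8%, 6.98 to 26.2%) and no transcript of the other 4 genes, which limits cells with a transcript at this depth to 5.87% for each. Those of plate 5 held *Angpt1* in 3 of 111 cells (2.703%) and those of plate 6 in 0 of 38. Neural-like clusters on plate 4 were led by other genes than those on plates 5 and 6, such as *Rspo3* and *Spon1* against *Pax6* and *Neurod2*. In the microglia-like cells of plate 5 *Angpt2* was found in 4 of 79 cells (5.06%, 1.40 to 12.5%), beside 3.91% in the wild-type gate, and *Tek* in 0.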

How the data were processed

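The authors deposited bulk values as normalized counts, a linear signal per gene. Within a library each value was a whole number of reads over 1 factor (100% of 124078 values up to 100 reads, within 0.01), so reads were recovered. For single cells the authors deposited expected counts of transcripts, corrected for identifiers drawn more than once, which were rounded for tests. The submitters' processing notes name BWA 0.6.2-r126, STAR, featureCounts, DESeq2 and the build mm10, without their roles. Gene models were those of GENCODE vM21, which held 53274 of the 53465 genes.

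The bulk test was that of limma 3.58.1, run in R 4.3.3 (log2, pseudocount 1, genes with a mean of at least 10, trend, two-sided, no block for brain). Single-cell sums of 3 plates by 4 gates were compared with edgeR 4.0.16 (quasi-likelihood, TMM, its filter on low counts). DESeq2 1.42.0, edgeR on the recovered bulk reads (4065 genes called higher in endothelial cells), other pseudocounts and filters, blocks, the SMART-Seq populations alone and leaving out each brain or plate were alternatives. P-values were adjusted by the Benjamini-Hochberg method over all genes tested. The fits were tested on simulated data. Same-brain libraries had residual correlations of -0.054 to 0.080 over 18 pairs, so brains were not taken as pairing the libraries.

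Cells needed more than 1500 transcripts; no doublet caller was run, 1 cell having been sorted per well. The last plate 3 library bears different numbers in its title and in the well table and was taken as 1 library. All 192 well barcodes occurred in more than 1 library, and 0 cells had identical profiles. Knockout cells were clustered with scanpy 1.11.5 (2000 variable genes, 30 components, 15 neighbours, Leiden resolution 1, members left out). Named were the 5 members, the 5 genes most correlated with *Angpt2* and *Ptprb* and the 3 most correlated with each other member, and in each list the genes with the largest differences; *Adam10*, *Arhgef2*, *Ctnnb1*, *Cxcr4*, *Itgb1* and *Pgf* were named outside this rule, after their values were seen. The members and lists were chosen with earlier results of these data known.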

Additional observations from a re-analysis of the deposited data

How the results depend on the processing

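For *Tek*, *Tie1* and *Ptprb* the call in endothelial cells against the other 3 populations held in 57 of 57 alternatives over bulk and single-cell data, with log2 differences of 5.12 to 10.14 and adjusted p of at most 0.0062. Bulk *Angpt2* gave 5.18 to 6.13 when a brain was left out and lost its call without the brain of Ec-340 (adjusted p = 0.0795). With the brain as a replicate block it kept 5.60 (adjusted p = 0.0082), *Angpt1* kept 6.94 (adjusted p = 0.0012), and the block changed no call of a member in its top population. In single-cell sums *Angpt1* and *Angpt2* were tested in few settings: *Angpt1* passed at 4.11 without a filter on low counts and at 4.70 without plate 3 but not in DESeq2 (3.26, adjusted p = 0.0908), and *Angpt2* passed at 4.05 without a filter and at 3.64 in DESeq2. Pairwise differences called in single-cell sums numbered 11 of 18 (3 genes), 19 of 30 (5 genes) without the filter, and 11 to 17 without a plate, the last of 24 (4 genes) without plate 3; of the 18 of *Tek*, *Tie1* and *Ptprb*, 11 were called without the filter, 14 without plate 3 and 8 in DESeq2 (10 of 30 over the 5 genes). Genes called higher in endothelial cells numbered 3892 in bulk and 2265 among the SMART-Seq populations, and in single-cell sums 1521, 868 in DESeq2 and 647 to 1979 without a plate. The mural minus neural differences in single-cell sums, which did not pass in the comparison over 3 plates, ran from -0.87 to 2.96 for *Tie1* and from -0.11 to 2.07 for *Ptprb* when a plate was left out, and fell below 0 without plate 2. With cells named by their highest marker level, *Tie1* was in 83.8% in place of 88.4% of endothelial-like knockout cells. The cause of these changes was not tested, apart from the fewer samples or genes that a setting leaves. Depth limited *Angpt1* and *Angpt2* in single cells (37 and 33 transcripts in their top gates) and, in bulk, *Tek* and *Ptprb* in microglia (1 read each).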

Other observations

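A small gate outside the 4 populations, labelled for medium or low PDGFRb, held 23 wild-type cells. *Angpt1* was found in 4 of them (17.4%, exact 95% interval 4.95 to 38.8%), *Tek* and *Tie1* in 1 each, and *Angpt2* and *Ptprb* in 0, which limits cells with a transcript to 14.8%. The interval for *Angpt1* includes the 13.8% of the mural gate.

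The unnamed cluster on the knockout plates, led by predicted genes such as *Gm26917*, held *Ptprb* in 15 and *Tie1* in 16 of its 36 cells on plate 6, at 135 and 139 CPM, with *Tek* at 21.8 CPM. These levels lay between those of the endothelial-like class (629 and 565 CPM) and the neural-like class (14.9 and 33.5 CPM) of the same plate. Endothelial markers summed to 757 CPM in these cells, beside 6822 CPM in the endothelial-like and 197.5 CPM in the neural-like class.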
